A study of Mus musculus with 2 samples.

Results

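The 40 lysosome genes examined here, out of 23282 rows of gene symbols, were selected by symbol from textbook roles (hydrolases, membrane proteins, V-ATPase subunits, sorting receptors and regulators). The list was drawn up because Grn had been chosen by its own difference between these same libraries, so every value below is a description of that comparison and no test was made of it. Splenic naïve CD4+ T cells of WT C57BL/6 mice (7 to 10 weeks old) were activated with anti-CD3 and anti-CD28 and cultured for 1 day with TGF-β1, IL-2 and antibodies to IFN-γ and IL-4, the conditions that induce Treg cells. They received either DMSO (control) or 10 μM Tubastatin A (TSA), an inhibitor of the deacetylase HDAC6. There was 1 library per condition, so no difference has a replicate check, and an effect of TSA cannot be told apart from any other difference between the cultures or library preparations. The question addressed was whether the higher level of Grn in the TSA library was shared by other genes of the lysosome.

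Progranulin, the product of Grn, is made as a precursor, carried to the lysosome and cut there into granulins. The lysosome degrades proteins, sugars and lipids in an acid lumen: the vacuolar ATPase (V-ATPase) pumps in protons, sorting receptors deliver the hydrolases, and TFEB and TFE3 are transcription factors known to drive many of the genes. In T cells the organelle also takes part in nutrient sensing and in the turnover of surface receptors.

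The libraries read the 3′ end of transcripts, so that long and short transcripts give reads alike, and held 10845868 (control) and 10431890 (TSA) reads on genes. All fold changes are on the log2 scale as the TSA value minus the control value, each value being log2 of a normalized count plus 1. The ranges in brackets after them are exact Clopper-Pearson 95% intervals of the ratio of reads. They compare these libraries and cover counting error only. A gene is called tested here when its fold change was set against 2-fold, with no p-value, which was done when it had at least 10 reads in at least 1 library, which 12164 genes did, and 39 of the 40 lysosome genes were among them. T cell genes were abundant in both libraries: Cd3e, a chain of the T cell receptor complex, had 1565 reads in the control and 1352 in the TSA library, and Cd4 had 2434 and 2548.

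Of the 39 tested lysosome genes, 4 passed 2-fold upward in the TSA library, Cd63, Grn, Lgmn and Naglu, and 0 were lower. Across all tested genes 11.5% were higher and 3.15% lower past 2-fold, against 10.3% (4 of 39) of the lysosome genes. The share over all genes depended strongly on the read level, and with a minimum average of 50 it was 2.96%, against 4 of 37 lysosome genes. Among the 30 lysosome genes whose normalized count averaged 100 or more, 2 passed 2-fold upward (6.67%), against 1.48% of all genes at that level, and 0 passed downward, against 1.31%. One of them is Grn, whose own value led to the list, so nothing is read from this count; without Grn it was 1 of 29 (Naglu). Among the 9 with a lower mean, 2 passed (22.2%), against 32.2% of all genes, a share that genes of very few reads carry. At a mean of 50 to 100, a range chosen after the data were seen and in which Cd63 and Lgmn lie, 2 of 7 passed (28.6%), against 13.0%. Whether the list stands apart from all genes thus turned on the read level compared, and was not tested. The median log2 fold change of the 39 genes was 0.18, against 0.015 for all tested genes, and 28 of them had a value above 0 (6246 of 12164 for all genes). Without Grn and Cd63 the median was 0.17.

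**Figure D1:**
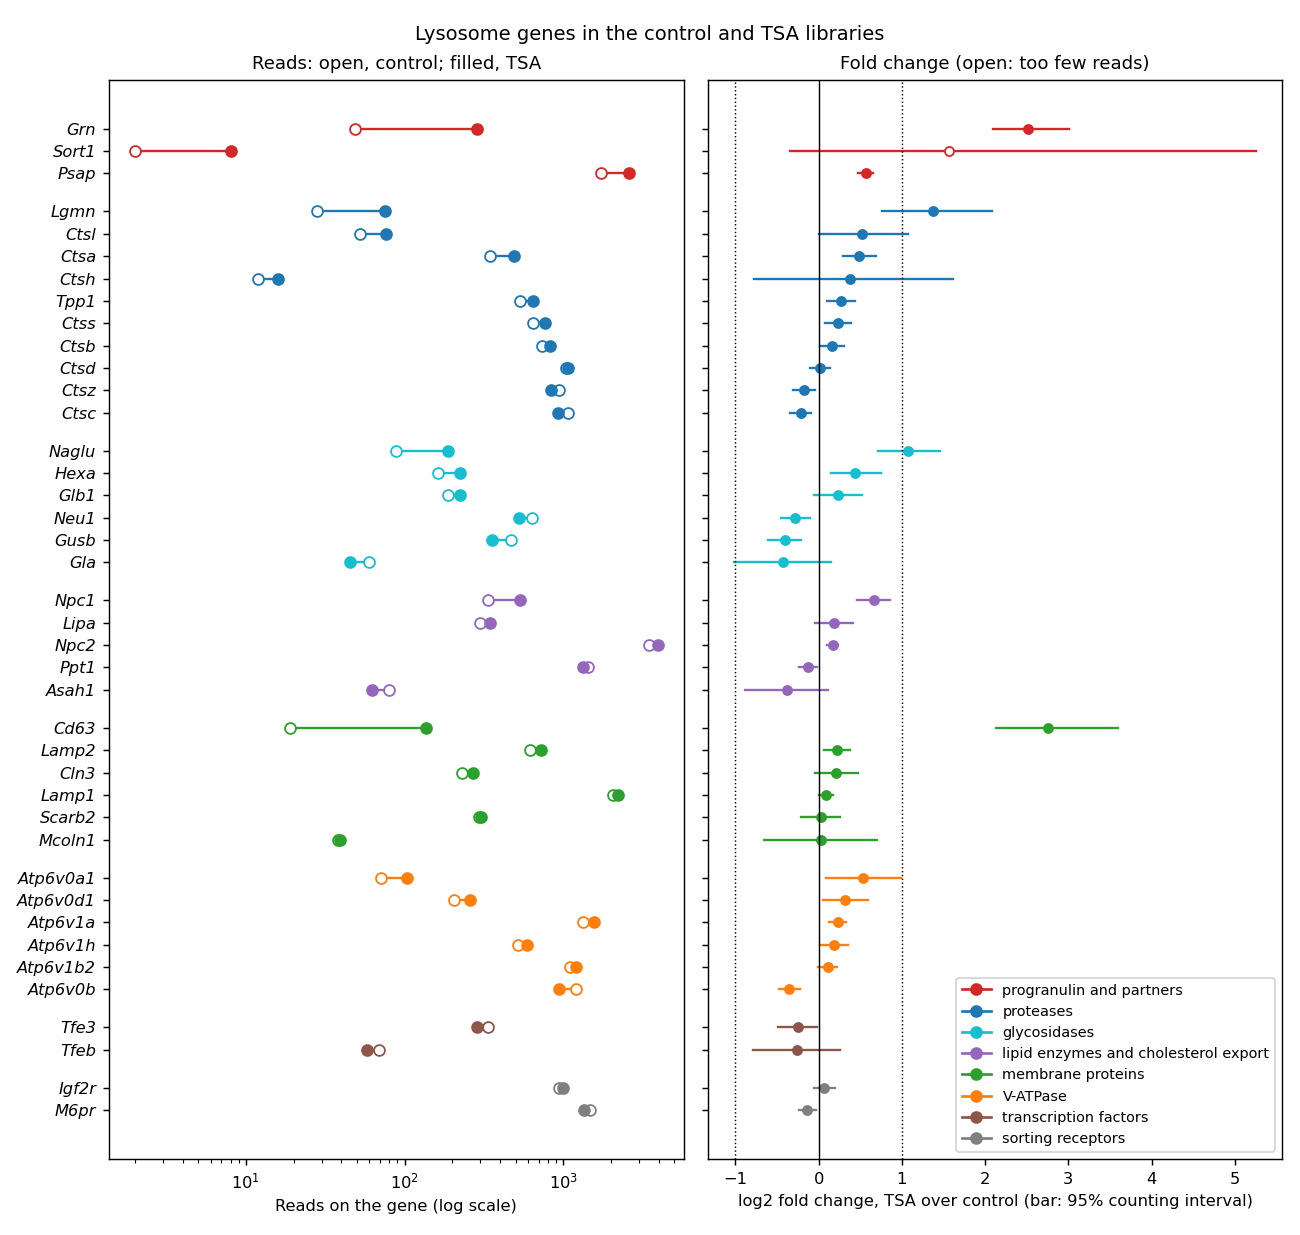
Reads of the 40 lysosome genes on a log axis (left; open points, control library; filled points, TSA library) and the log2 fold change of TSA over control with its 95% counting interval (right; dotted lines mark 2-fold; the open point is Sort1, which had too few reads to be tested). Cd63 and Grn lie at 2.76 and 2.51, apart from the other tested genes, which lie between -0.42 and 1.38.

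Small differences in both directions made up most of the list. The interval lay above no change for 19 genes (48.7%) and below it for 8 (20.5%), and it included no change for 12. For all tested genes these shares were 28.1% above and 28.0% below. At an average of 100 or more, 15 of 30 lysosome genes lay above and 8 below, against 23.4% and 36.5% of all genes, and the medians were 0.18 and -0.06. The 40 genes summed to 24883 reads in the control and 27420 in the TSA library, a ratio of 1.15 (1.13 to 1.17) relative to each library's total. Of these 40 genes Npc2, which carries cholesterol inside the lysosome, held the most reads in both libraries.

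The plot of fold change against read level places the lysosome genes among all others. In 20 bins of equal size, the median log2 fold change of all tested genes went from 2.10 at a mean normalized count of 7.5 to 0.132 at 98.4. It was -0.144 at 2118 and -0.093 in the last bin, at 4739. Grn, at a mean of 167, ranked 1 of 8188 genes with a mean of at least 100. With the minimum at 50 it ranked 10 of 9399, and Cd63 ranked 6.

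**Figure D2:**
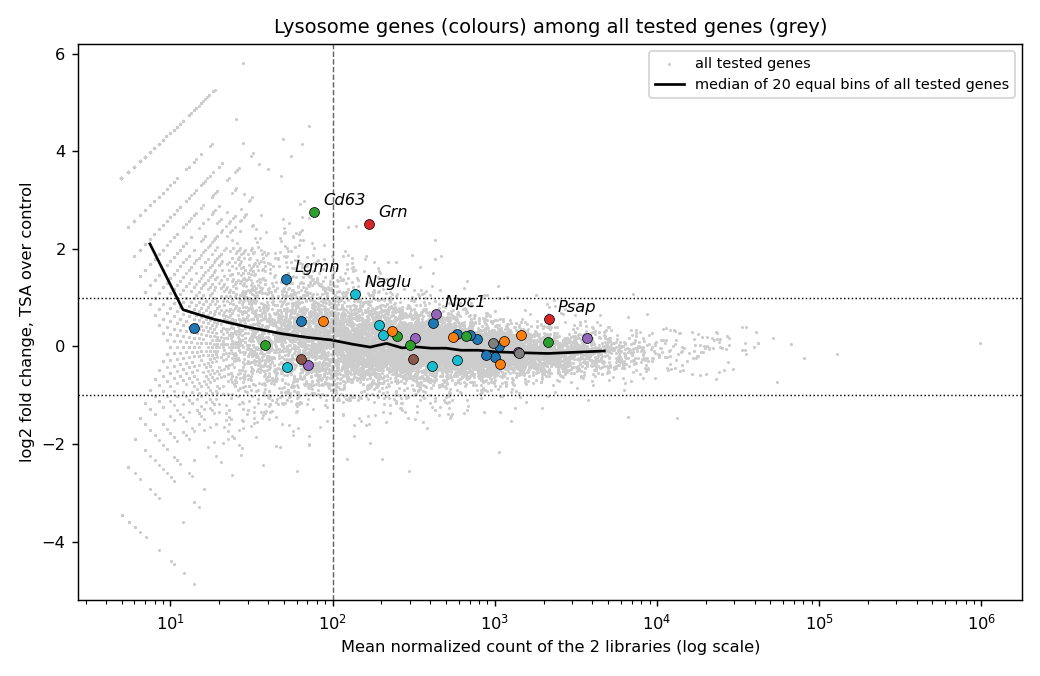
Log2 fold change of TSA over control against the mean normalized count of the 2 libraries (log axis) for all tested genes (grey) and the 39 tested lysosome genes (colours by role, as in the plot of reads by gene); the black line joins the medians of 20 bins, the dashed line marks a mean of 100 and the dotted lines mark 2-fold. The black line falls from left to right at low counts and changes little, in both directions, at high counts; Cd63 and Grn stand far above it.

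Grn had 49 reads in the control and 287 in the TSA library, a log2 fold change of 2.51 (2.09 to 3.0) and a fold change of 5.70. It is a protein-coding gene on the plus strand of chr11:102430315-102437048 (GRCm38, the build of mm10). Of the last 500 exon bases of its coding transcripts, 68 overlap an exon of Fam171a2 on the opposite strand. Fam171a2, which was named after its values were seen, was listed with 0 reads in the control and 38 in the TSA library. The sources used here do not say whether strand was used in counting, and without it reads in that overlap cannot be told apart. Such overlaps, of 10 to 500 bases, were found for 8 of the 40 genes: Grn, Ctsa, Ctsb, Ctsz, Ppt1, Npc1, Lamp1 and Atp6v0b. Sort1 encodes sortilin, the receptor that takes progranulin up and sends it to the lysosome. It had 2 and 8 reads, too few to be tested, with an interval from -0.34 to 5.26 that also holds no change. Psap encodes prosaposin, the precursor of the saposins, which binds progranulin and can carry it to the lysosome. It had 1729 and 2584 reads and a log2 fold change of 0.57 (0.48 to 0.65), the next highest value after Grn, Naglu and Npc1 among the 30 genes with a mean of at least 100. Grn and Psap thus differed in the same direction, Psap by far less.

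Among 10 protease genes, 1 was higher past 2-fold and 0 were lower, against 11.5% and 3.15% of all tested genes. Their median log2 fold change was 0.25. Lgmn, which encodes legumain, an asparaginyl endopeptidase, had 28 reads in the control and 75 in the TSA library, a log2 fold change of 1.38 (0.76 to 2.09). It lies on the minus strand of chr12:102394084-102439813. Cysteine cathepsins went both ways. Ctsl had 52 and 76 reads (0.53, interval 0.0056 to 1.07), Ctss, a protease of antigen processing, 643 and 764 (0.23, 0.081 to 0.39), and Ctsb 731 and 825 (0.16, 0.015 to 0.31). Ctsc, which activates granule serine proteases, had 1067 and 927 reads and a log2 fold change of -0.22 (-0.35 to -0.09). Ctsz had 935 and 837 reads and a log2 fold change of -0.17 (-0.31 to -0.04). Ctsh, with 12 and 16 reads, had an interval from -0.77 to 1.61. The remaining proteases were Ctsa, the serine carboxypeptidase that also protects neuraminidase, with 345 and 489 reads (0.49, 0.29 to 0.69), Tpp1, a tripeptidyl peptidase, with 530 and 643 (0.26, 0.097 to 0.43), and the aspartic protease Ctsd with 1045 and 1067 (0.016, -0.11 to 0.14). For Ctsa and Ctsb, 314 and 500 of the last 500 exon bases overlap exons of Pltp and Fdft1 on the opposite strand. Pltp had 271 and 402 reads and Fdft1 294 and 314.

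The 6 genes of sugar-degrading enzymes were split, with 3 values above 0 and 3 below and a median of -0.02. Naglu, the N-acetylglucosaminidase of heparan sulfate breakdown, had 88 reads in the control and 188 in the TSA library, a log2 fold change of 1.07 (0.71 to 1.46). Its interval reaches below 2-fold. Naglu lies on the plus strand of chr11:101070012-101077672. Hexa, an enzyme of ganglioside breakdown, had 163 and 224 reads (0.44, 0.15 to 0.74), and Glb1, β-galactosidase, had 187 and 222 (0.23, -0.05 to 0.52). Below 0 were Gusb, β-glucuronidase, with 468 and 356 reads (-0.41, -0.61 to -0.21), Neu1, the neuraminidase, with 634 and 528 (-0.28, -0.45 to -0.11), and Gla, α-galactosidase A, with 60 and 45 (-0.42, -1.02 to 0.15). Gusb and Neu1 were thus lower by more than counting error while Naglu and Hexa were higher.

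Of 5 genes for lipid breakdown and cholesterol export, none passed 2-fold. Of all tested genes 11.5% were higher and 3.15% lower, or 1.48% and 1.31% at a mean of 100 or more. Npc1, the membrane protein that moves cholesterol out of the lysosome, had 335 reads in the control and 535 in the TSA library, a log2 fold change of 0.66 (0.46 to 0.86). Its soluble partner Npc2 had 3464 and 3928 reads, a much smaller difference of 0.17 (0.10 to 0.23). Lipa, the acid lipase that frees cholesterol from its esters, had 299 and 343 (0.18, -0.04 to 0.41). Ppt1, a palmitoyl thioesterase, had 1434 and 1330 reads (-0.12, -0.23 to -0.014), and Asah1, acid ceramidase, had 80 and 62 (-0.38, -0.88 to 0.11). For Npc1, 192 of its last 500 exon bases overlap a gene on the opposite strand.

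All 6 membrane protein genes had values above 0 (6246 of 12164 for all tested genes), but the sizes were far apart. Cd63 encodes a tetraspanin of late endosomes, lysosomes and exosomes. It had 19 reads in the control and 136 in the TSA library, a log2 fold change of 2.76 (2.13 to 3.60) and a fold change of 6.78. The last 300 bases of its longest coding transcript are 98% identical to Cd63-ps, so reads of these copies can be mixed. Cd63 lies on the plus strand of chr10:128900989-128912822. The other five differed little. Lamp2 had 613 and 723 reads (0.22, 0.067 to 0.38) and Lamp1 2067 and 2223 (0.091, 0.0038 to 0.18); both are the abundant glycoproteins that line the lysosomal membrane. Cln3 had 229 and 268 reads (0.21, -0.05 to 0.47). Scarb2, a membrane receptor of the lysosome, had 295 and 303 (0.024, -0.21 to 0.26), and Mcoln1, the calcium channel TRPML1, had 38 and 39 (0.023, -0.66 to 0.71). For Scarb2 and Mcoln1 a difference was not detectable at this depth, and for Cln3 the interval lay above no change when the libraries were scaled to equal totals or equal upper quartiles.

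The V-ATPase genes gave a narrow range, with 5 of 6 values above 0 (6246 of 12164 for all tested genes) and a median of 0.21. None passed 2-fold, against 11.5% higher and 3.15% lower of all tested genes, or 1.48% and 1.31% at a mean of 100 or more. Atp6v0a1, of the membrane sector, had 71 and 104 reads (0.53, 0.087 to 0.99) and Atp6v0d1 206 and 260 (0.32, 0.052 to 0.59). In the catalytic sector, Atp6v1a had 1328 and 1569 reads (0.23, 0.12 to 0.33), Atp6v1h 516 and 592 (0.18, 0.011 to 0.36) and Atp6v1b2 1098 and 1194 (0.11, -0.01 to 0.23). Atp6v0b went the other way, from 1195 to 946 reads (-0.35, -0.48 to -0.23).

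Tfeb and Tfe3, the transcription factors among the 40, had values below 0. Tfeb had 69 reads in the control and 58 in the TSA library, a log2 fold change of -0.26 (-0.79 to 0.26), and Tfe3 had 337 and 286, a log2 fold change of -0.25 (-0.48 to -0.02). These are transcript levels, and both factors are known to be controlled mainly by their location in the cell. The mannose 6-phosphate receptors, which sort hydrolases in the Golgi, stayed close to 0. M6pr had 1477 and 1359 reads (-0.14, -0.24 to -0.03) and Igf2r 945 and 1001 (0.069, -0.06 to 0.20). With scaling to equal totals, or to equal upper quartiles, the intervals of Ctsz, Ppt1, Tfe3 and M6pr included no change, and 4 genes (Neu1, Gusb, Ctsc and Atp6v0b) stayed below it. These scalings moved all genes alike: the median of all tested genes went from 0.015 to 0.085 and 0.087. The lysosome genes above no change went from 19 to 24 (Igf2r, Lipa, Cln3, Atp6v1b2 and Glb1 added) while the share of all genes went from 28.1% to 33.7% and 33.8%, and the share below went from 28.0% to 21.6% and 21.5%.

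TFEB and TFE3 bind a palindrome centred on CACGTG, so the promoter windows of RefSeq (GRCm38.p6, 250 bases before to 50 after a gene's start) were searched for TCACGTGA and for its core CACGTG; both read the same on either strand, and every TCACGTGA holds a CACGTG. Windows were given for 32 of the 40 genes. TCACGTGA was found in 8 of the 32 genes (25%) and in 1.12% of all genes with a window, and CACGTG in 14 (43.8%) and 8.09%. Among genes tested here the shares were 2.31% and 12%. The motif stretches below, 1 for each of the 14 genes, show which lysosome genes hold the letters; bases run 5′ to 3′ along the gene's strand and the capitals mark the motif. The first 8 are 30-base stretches with TCACGTGA, and the last 6, from Lgmn to Ctsl, belong to the genes with CACGTG alone. The start of a window is that of RefSeq and can differ from GENCODE, in whose gene models the stretches of Ctsa, Ctsd, Cln3, Mcoln1, Atp6v1a, Lgmn, Naglu and Ctsl lie wholly or in part inside the gene. The last 50 bases of the window lay in a GENCODE transcript of the gene for 31 of 39 windows.
Ctsa, chr2:164833749-164833778, plus strand: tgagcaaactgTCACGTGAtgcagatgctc
Ctsd, chr7:142387908-142387937, minus strand: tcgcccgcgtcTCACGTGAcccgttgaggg
Cln3, chr7:126583340-126583369, minus strand: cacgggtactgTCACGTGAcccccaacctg
Mcoln1, chr8:3500462-3500491, plus strand: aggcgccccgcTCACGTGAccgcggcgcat
Atp6v0d1, chr8:105566050-105566079, minus strand: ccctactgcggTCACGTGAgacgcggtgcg
Atp6v1a, chr16:44139373-44139402, minus strand: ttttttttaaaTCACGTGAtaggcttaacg
Igf2r, chr17:12769737-12769766, minus strand: gaacgaggacgTCACGTGAgcaggaggcgg
Gla, chrX:134601215-134601244, minus strand: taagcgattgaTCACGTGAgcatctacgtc
Lgmn, chr12:102439124-102439153, minus strand: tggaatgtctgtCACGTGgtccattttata
Naglu, chr11:101070009-101070038, plus strand: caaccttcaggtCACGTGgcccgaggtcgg
Glb1, chr9:114401018-114401047, plus strand: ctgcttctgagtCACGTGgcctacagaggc
Atp6v0b, chr4:117887348-117887377, minus strand: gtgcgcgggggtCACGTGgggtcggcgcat
Lamp1, chr8:13159088-13159117, plus strand: agggcaagatatCACGTGgtccagcgccca
Ctsl, chr13:64370739-64370768, minus strand: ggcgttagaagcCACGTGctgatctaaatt

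Neither motif was in the windows of Grn or Cd63, the genes with the highest fold changes. For Cd63 the 250 bases before the RefSeq start, chr10:128909095-128909344, lie inside the GENCODE gene, which begins at 128900989. The sequence before that GENCODE start was not searched, and for Grn only 58 bases before it were. The 58 bases of the Grn window that lie before any annotated exon of the gene are shown in lower case because they hold neither exact motif. Sites that differ from these motifs by a letter were not searched for, so a related site is not excluded.
Grn, chr11:102430257-102430314, plus strand: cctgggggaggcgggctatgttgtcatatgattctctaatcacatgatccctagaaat

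The genes with TCACGTGA had log2 fold changes from -0.42 to 0.49 with a median of 0.14. Of these genes 0 of 8 passed 2-fold, and no difference between motif classes was tested. Of all tested genes 11.5% were higher and 3.15% lower, or 1.48% and 1.31% at a mean of 100 or more. The 6 genes with the core alone had a median of 0.38 and included Lgmn and Naglu as well as Atp6v0b, which like Gla had a value below 0, and the 18 with neither had a median of 0.18 and included Grn and Cd63. The ranges of the 3 classes overlapped.

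**Figure D3:**
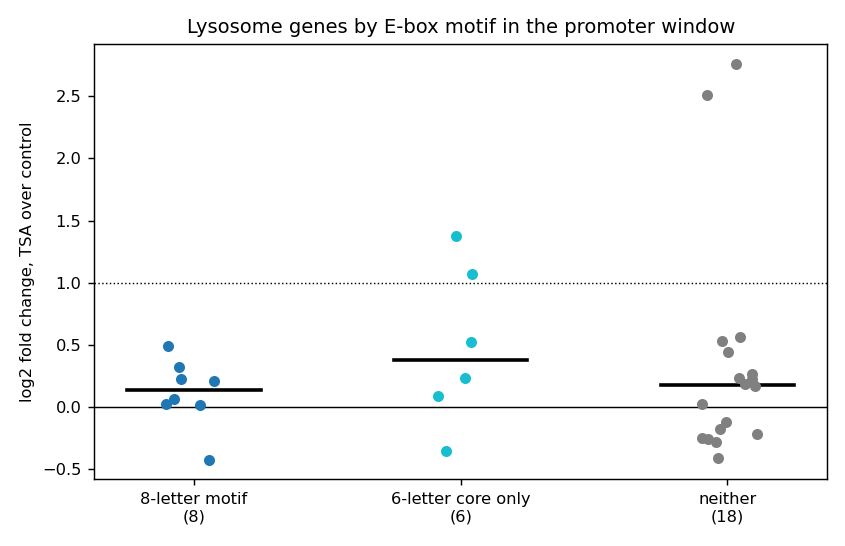
Log2 fold change of TSA over control for the 32 lysosome genes with a promoter window, by the motif the window holds (8 letters, TCACGTGA; 6 letters, CACGTG without the longer motif; neither); each point is 1 gene and bars are medians. The points above the dotted 2-fold line are Lgmn and Naglu in the middle class and Grn and Cd63 in the class with neither motif.

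The comparison was widened to 133 other genes of the lysosome or its regulation in 7 lists of similar roles, and 126 had enough reads. The list of other regulators also holds signalling genes whose products are not part of the lysosome. In this wider set 7 were higher past 2-fold (5.56%, against 11.5% of all tested genes) and 1 was lower, against 3.15%. Among the 102 with an average of 100 or more, 2 were higher (1.96%, against 1.48%) and 0 lower, against 1.31%. The median log2 fold change of all 126 was 0.14, below that of the 39 genes. The other glycosidases and sulfatases had a median of 0.43, against -0.02 for the 6 glycosidases among the 40, and no difference between roles was tested. Their interval lay above no change for 12 of 18 and below it for 0, against 28.1% and 28.0% of all tested genes. Among them Manba, β-mannosidase, had 10 and 32 reads (1.57). The other lipid and nucleic acid enzymes had a median of 0.41, with Dnase2a, the lysosomal DNase, at 31 and 99 reads (1.63). Naaa, an acid amidase named after its values were seen, had 8 and 20 (1.21). Lowest were the other regulators, with a median of -0.07 over 22 genes, of which 3 had an interval above no change and 6 below. Over all 126 genes the interval lay above no change for 49 and below it for 21.

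Membrane and sorting genes outside the 40 were spread around 0, with medians of 0.06 and 0.05 over 23 and 31 genes. Laptm4b had 79 and 236 reads (1.55) and Sorl1, a sorting receptor related to sortilin, 80 and 209 (1.36), both past 2-fold upward. Tpcn2, a lysosomal cation channel, had 54 and 21 reads (-1.34). Tmem106b, a lysosomal membrane protein linked genetically to progranulin deficiency, had 159 and 167 reads (0.06). Cd68, a macrophage lysosome glycoprotein, had 32 and 19 (-0.74). The 11 other V-ATPase subunits had a median of 0.24, close to that of the 6 subunits above, and the other proteases and their inhibitors had a median of 0.36 over 8 genes. Among regulators Mitf, a relative of TFEB, had 15 and 36 reads (1.20), Tfec had 1 and 0, and Flcn, folliculin, 222 and 173 (-0.37).

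**Figure D4:**
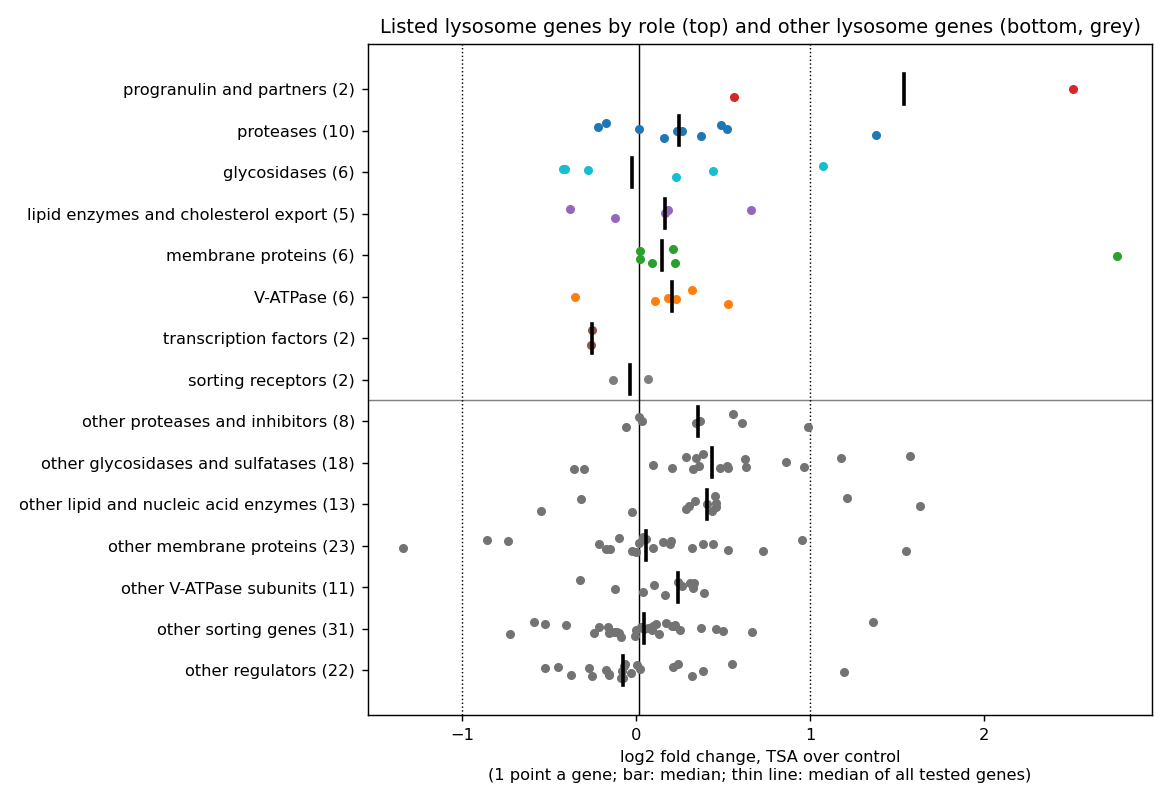
Log2 fold change of TSA over control of each tested lysosome gene by role, with the number of genes in brackets; the top 8 lists are the 40 genes and the bottom 7, in grey, are other genes of the lysosome or its regulation. Bars are list medians, the thin line is the median of all tested genes and the dotted lines mark 2-fold; most points of both parts lie between the dotted lines.

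The naïve CD4+ T cells had been purified with a magnetic isolation kit, which is meant to remove other cell types. Grn and Cd63 are also expressed by myeloid cells, so marker genes of other cell types were read in the same libraries. The 16 myeloid markers summed to 138 reads in the control and 123 in the TSA library, 4 of them had 0 reads in both, and no marker had more than 62. Among the defining ones, Lyz2 had 6 and 10 reads, Csf1r 9 and 2, Adgre1 4 and 0, and Cd14 2 and 4. The 10 dendritic cell markers summed to 250 and 379 reads, 2 of them had 0 reads in both, and 3 of the 6 with enough reads passed 2-fold upward, against 32.2% of all genes with a mean under 100. The markers went both ways. All named after their values were seen, Flt3 had 0 and 33 reads, H2-Ab1 42 and 157, and Zbtb46 2 and 11. H2-Aa, the partner chain of H2-Ab1, had 52 and 63 reads, Cd74 113 and 85, Batf3 28 and 24, Xcr1 9 and 6, and Itgax 4 and 0. The 9 B cell markers in the table summed to 16 and 31 reads, with Cd79a at 1 and 5, Ebf1 at 1 and 12, Cd79b at 11 and 4, and Cd22 at 3 and 0. Totals were also taken for the 9 NK and CD8 markers (1003 and 1176 reads), the 9 T cell markers (20902 and 22003) and the 9 markers of red cells, platelets and stroma (204 and 338). Most of the first total was Nkg7 (889 and 1043), while Cd8a had 15 and 10. Most of the last was Pecam1 (144 and 234). In that list Col1a1 had 1 and 20 reads and Hbb-bs 4 and 17. Of its 6 genes with enough reads, 1 had a value below 0, Hba-a1 with 28 and 28. These genes were named after their values were seen. The part of these cell types in the values of Grn, Cd63 and Lgmn was not tested. In bulk RNA, fewer cells of a type and less RNA per cell cannot be told apart.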

How the data were processed

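The values deposited for each gene are on a log2 scale, read from their steps as log2 of a normalized count plus 1; reads had been assumed when the tests were planned. They made QuantSeq 3′ libraries, read 75 nt from 1 end of each fragment and used ExDEGA; their processing notes list Bowtie2, bedtools and mm10, and the normalization is not given in the sources used here. Where a sample was not replicated, no p-value was computed. The raw counts were recovered as whole reads, since 1 read was worth 1.005 (control) and 0.9952 (TSA) normalized counts, and 99.7% and 99% of values of 1 to 300 reads lay within 0.1 of a whole number. In the control library 1940 rows with 0 reads were listed above 0, at up to 0.016.

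The genes and lists were chosen with earlier results of these data known. All 40 genes are named; of other lysosome genes, those past 2-fold whose normalized count averaged 20 or more and a few fixed by role, except some that are not reported here. Simulated reads with known answers were used to test the recovery of reads, the 2-fold calls and the coverage of the intervals. The search for motifs, overlaps and copies had no such test. Positions, overlaps and copies came from GENCODE M21 (GRCm38, the build of mm10) and promoter windows from RefSeq. Python 3.11.15, numpy 2.4.6, pandas 2.3.3 and scipy 1.17.1 were used. Scaling, pseudocount, filter and threshold were varied.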

Additional observations from a re-analysis of the deposited data

How the results depend on the processing

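No paired analysis was possible because each condition had a single library. For the same reason leaving out a replicate was not an option. Of 61 comparisons of a value with its alternative, 58 kept their direction and stayed close to the reported value and 3 moved. When the whole interval had to lie beyond 2-fold, 2 lysosome genes were higher (Cd63 and Grn) in place of 4, against 4.97% of all tested genes. With scaling by total reads, 4 genes in place of 8 had an interval below no change, and scaling by the upper quartile also gave 4; both moved the genes above no change from 19 to 24. By construction these scalings raised every gene, and the shares of all genes below no change went from 28.0% to 21.6% and 21.5% and those above from 28.1% to 33.7% and 33.8%. The count of 4 higher genes became 5 with no filter (with Sort1), against 18% of all genes, and 5 with a 1.5-fold threshold (with Npc1), against 18.7%. It stayed at 4 with at least 10 reads in both libraries, against 4.8%, and with a mean of at least 50, against 2.96%. The median of the list ranged from 0.18 without Grn to 0.26 with upper-quartile scaling, where the median of all genes was 0.087 in place of 0.015, and Grn from 2.42 with a pseudocount of 5 to 2.58. Depth limits genes with few reads, such as Ctsh, whose interval ran from -0.77 to 1.61 on 12 and 16 reads.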
